A study of Mus musculus with 40 samples.

Results

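Genes for 9 apolipoproteins and for Mttp, the protein that loads ApoB with lipid, were followed in mouse liver: Apob, Mttp, Apoa1, Apoa2, Apoa4, Apoa5, Apoc1, Apoc2, Apoc3 and Apoe. They were taken by symbol, from a list chosen with earlier results of these data known. All 10 were found in both deposited tables of counts, which share 40594 genes. All 10 also passed the filter on low counts, which left 12942 genes to test. Liver poly-A RNA had been sequenced from 40 male mice, 5 months old and labelled C57BL6/J, in 8 groups of 5. The 20 wild-type (WT) mice carried no engineered allele. The 20 knockout (KO) mice carried loxP-flanked Pparg, the gene of the nuclear receptor PPARγ, and the Alb-Cre transgene. Its albumin promoter drives Cre in hepatocytes, so other liver cells kept the gene, and no group carried the loxP allele without Cre. The WT mice came from a supplier and were not described as littermates of the KO mice. Within each genotype the groups received control (low-fat) diet, control diet with pioglitazone (Pio), high-fat diet (HFD) or HFD with pioglitazone (HFD-Pio). Pio is a thiazolidinedione that activates PPARγ. The comparisons ask how Pio and HFD changed liver expression with and without hepatocyte PPARγ.

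Lipids travel in plasma as particles that are held together by apolipoproteins. The liver builds very-low-density lipoprotein (VLDL) in the endoplasmic reticulum, where Mttp, the large subunit of microsomal triglyceride transfer protein, adds lipid to ApoB, and it secretes ApoA1 and ApoA2 for high-density lipoprotein (HDL). The smaller apolipoproteins exchange between particles, where ApoC2 and ApoA5 promote the action of lipoprotein lipase, ApoC3 and ApoC1 restrain lipolysis and uptake, and ApoE binds the receptors that clear remnants.

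Most members lie in 2 clusters. In the GRCm38 build Apoa1, Apoc3, Apoa4 and Apoa5 lie within 43.34 kb of chromosome 9 (46228580 to 46271919). Apoe, Apoc1 and Apoc2, with Apoc4 between them, lie within 27.61 kb of chromosome 7 (19671579 to 19699188). Apoa2 is on chromosome 1 (171225054 to 171226379), Apob on chromosome 12 (7977648 to 8016835) and Mttp on chromosome 3 (138089854 to 138144968). The library preparation is not stated to keep strand, and only unambiguous reads were counted. If strand was not used, reads in exon bases shared between genes were left out. In the count tables this touches Mttp, which shares 457 exon bases (7.36%) with Trmt10a, a gene with counts equal to 1.19% of those of Mttp. It also touches Apoa4, which shares 632 (34.8%) with the antisense gene Gm10680, counted 1 time in all 40 mice. The number of reads left out was not tested, and the counts of the overlapping genes do not show it. Gm47528, Gm47544, Gm44805 and Gm43691 overlap Apoa4, Apoa5, Apoc2 and Mttp in the later GENCODE M21 annotation and are not in the tables counted here.

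Promoter windows were taken from RefSeq (GRCm38.p6) for 8 of the 10 members, from 250 bases before to 50 after each annotated start. Apoc1 and Apoc3 had no entry. Each window was searched on both strands for CAAAGNNCA, a core of the direct repeats bound by HNF4, for AGGTCA, the hexamer of nuclear receptor sites, and for DR1, the direct repeat of AGGTCA with 1 base between the copies that is typical of PPAR response elements. TATAAA was searched on the strand of the gene. The stretches below are those of Apoa4, Apob and Apoc2, whose counts the results turn on, and of Apoa1, which neighbours Apoa4. They end before annotated exons, and capitals mark a match to CAAAGNNCA or AGGTCA. They cover chr9:46240594-46240695 (plus strand), chr12:7977427-7977647 (plus strand), chr7:19677942-19678082 (minus strand) and chr9:46228380-46228579 (plus strand) in this order.
Apoa4: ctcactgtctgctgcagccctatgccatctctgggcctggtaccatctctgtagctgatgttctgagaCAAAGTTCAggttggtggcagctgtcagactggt
Apob: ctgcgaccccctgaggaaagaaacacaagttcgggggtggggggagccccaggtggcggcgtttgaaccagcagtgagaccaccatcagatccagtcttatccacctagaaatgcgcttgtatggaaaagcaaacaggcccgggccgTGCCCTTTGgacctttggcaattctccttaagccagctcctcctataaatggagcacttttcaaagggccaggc
Apoc2: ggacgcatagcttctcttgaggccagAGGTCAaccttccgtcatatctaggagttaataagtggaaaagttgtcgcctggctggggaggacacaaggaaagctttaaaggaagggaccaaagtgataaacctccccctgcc
Apoa1: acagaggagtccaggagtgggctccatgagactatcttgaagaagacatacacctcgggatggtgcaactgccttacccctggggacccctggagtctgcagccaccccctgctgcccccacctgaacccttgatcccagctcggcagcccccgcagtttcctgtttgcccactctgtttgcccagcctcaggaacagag

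CAAAGNNCA was found in 2 of the 8 members, Apoa4 at 182 and Apob at 103 bases before the start, and in 6.36% of 32851 windows of the annotation. AGGTCA, which also makes up the longer repeat, was found in Apoa2 and Apoc2, at 115 bases before the start in Apoc2, and in 16.3% of windows. The DR1 repeat was in none of the members and in 0.0396% of windows. TATAAA was in Apoa2, Apoa5, Apob and Apoe, and in 8.32% of windows. The windows of Apoa1 and Mttp held none of the 4 motifs. A match of letters is no evidence of binding, and its absence says only that these letters are not in this window.

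The libraries held 15788242 to 49857017 counts in WT and 21542958 to 28334251 in KO mice, and the 10 members took 3.15% to 6.26% of the counts in WT mice and 3.44% to 5.60% in the KO mice other than mouse 13. Levels are given as CPM, counts relative to a library size scaled by the trimmed mean of M values (TMM). Counts of Pparg, which cover all its exons whether deleted or not, ran from 5.79 to 14.2 CPM in WT and from 3.01 to 9.90 in KO mice, so the genotypes overlapped. All 8 hepatocyte markers were expressed. Of 7 enterocyte markers, Sis was at 0 in every mouse and Alpi, Lct and Vil1 had medians under 1 CPM. Of 7 adipocyte markers, Adipoq, Lep, Plin1, Retn and Adig had medians under 1 CPM, and Car3 and Cfd carried most of a summed level that ran from 1054 to 1921 CPM in WT control, 2502 to 4817 in WT Pio, 2920.1 to 5103 in WT HFD and 4160.0 to 5673 in WT HFD-Pio mice. In bulk liver, fewer cells of a type and less RNA per cell cannot be told apart. The WT and KO mice were counted in separate tables, which cannot be told apart from genotype, and levels were not tested between genotypes.

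KO Pio mouse 13 stood apart in its apolipoproteins. Apoe reached 102575 CPM there and 11257 to 20817 in the other 19 KO mice, Apoa5 reached 4917 against 763 to 1444, and Apoa1 18104 against 7263 to 12572. Apob, Apoa2, Apoc1, Apoc2, Apoc3 and Mttp were below every other KO mouse, with Mttp at 54.7 CPM against 267 to 446 and Apob at 2108 against 6631 to 11335. Only Apoa4, at 470.4 CPM, lay within the range of the others. The summed hepatocyte markers were 18603 CPM in mouse 13 and 97429.9 to 126145 in the other KO Pio mice, genes encoded by mitochondrial DNA took 0.853% of its counts against 5.28% to 7.99% in the other KO mice, and pancreatic acinar markers summed to 134.5 CPM against 0.532 to 2.07. Another mouse with high acinar markers was in the KO HFD group, at 561 CPM. What sets mouse 13 apart was not tested, and each result for the KO Pio group is given with and without it.

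WT control mouse 832 lay below the other 4 WT control mice for 8 members, with Apoc1 at 579 against 2513 to 3120 CPM, Apoa2 at 1231 against 4189 to 5807 and Apoe at 11637 against 23439.5 to 28568. Its Apoa4, at 908 CPM, was above their 163 to 591, and its Apob was within their range. Its hepatocyte markers summed to 77226 CPM, the lowest of the WT mice. WT Pio mouse 845, in which genes encoded by mitochondrial DNA took 21.1% of the counts, was below the other WT Pio mice for 6 members, by less than mouse 832.

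**Figure D1:**
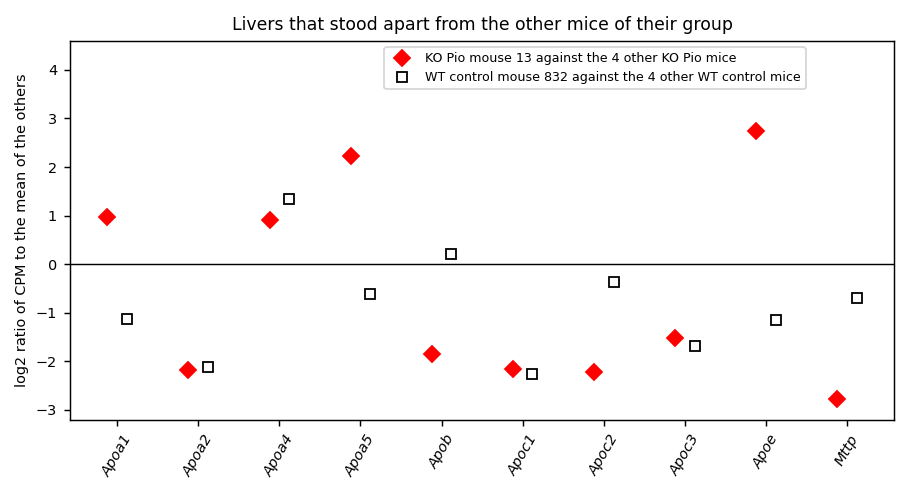
Log2 ratio of each member's TMM-scaled CPM in KO Pio mouse 13 and in WT control mouse 832 to the mean of the other 4 mice of the same group. In mouse 13 Apoe, Apoa5, Apoa1 and Apoa4 are above 0 and the other 6 members below, with Apoe at 2.74 and Mttp at -2.78, and in mouse 832 Apoa4 and Apob are above 0.

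Levels between genes were compared as CPM per kilobase of merged exons. Exon bases shared with other genes were kept in the length, so the levels of Apoa4 and Mttp may be too low. In WT mice Apoe had the highest median, 12099 CPM per kb, followed by Apoa2 at 10724, Apoa1 at 8242, Apoc1 at 3525 and Apoc3 at 1189.7. Apoa5 at 387, Apoc2 at 358, Apob at 273 and Apoa4 at 149 came next, and Mttp was lowest at 43.9. The ranges of all neighbours in this order overlapped over the 20 WT mice. In the 19 KO mice without mouse 13 Apoa2 and Apoe led with medians of 8100.3 and 8094 CPM per kb, ahead of Apoa1 at 7288, Apoc1 at 3729, Apoc3 at 1134 and Apob at 653. Apoa5 at 451, Apoc2 at 273, Apoa4 at 86.1 and Mttp at 58.9 followed. There Apoa1 lay wholly above Apoc1, Apoc1 above Apoc3 and Apoc3 above Apob, while the other neighbours overlapped. Apob thus stood eighth among the WT and sixth among the KO medians.

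**Figure D2:**
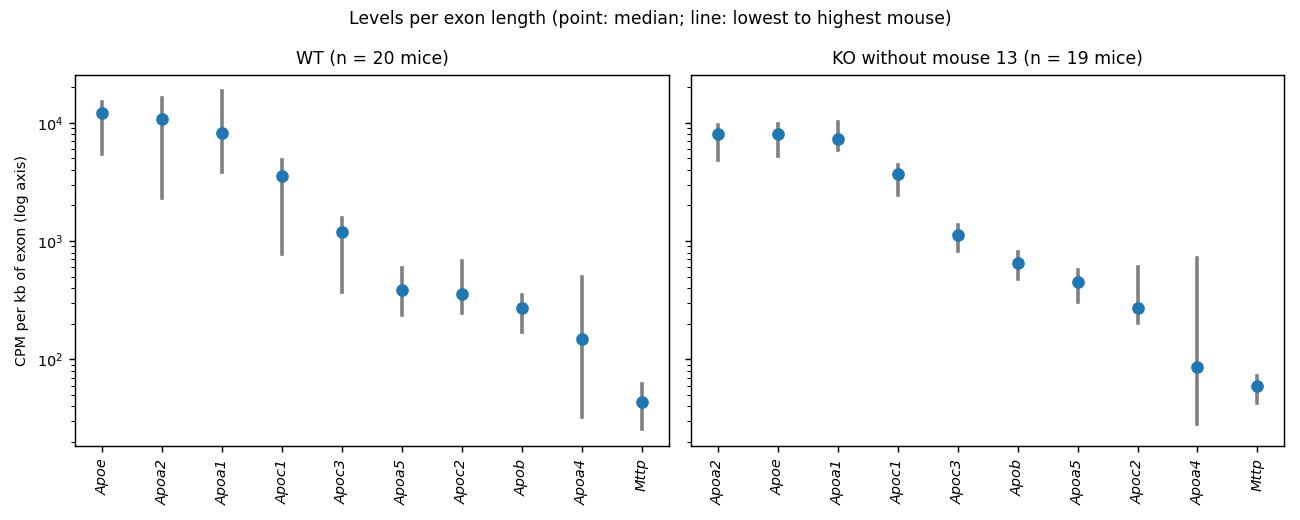
Level of the 10 members as TMM-scaled CPM per kilobase of exon on a log axis, as the median (point) and the range (line) over 20 WT mice and over 19 KO mice without mouse 13. Apoe, Apoa2 and Apoa1 are highest and Mttp is lowest in both genotypes.

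Differences are log2 fold changes ± standard error from edgeR's quasi-likelihood test, fitted over all 40 mice and 12942 genes. The standard error was derived as the size of the log2 fold change divided by the square root of the test's F statistic. A gene was called at a Benjamini-Hochberg adjusted p of at most 0.05. Of 140 values, 10 members in 14 comparisons, 3 were called: Apoa4 was lower on HFD in KO mice, with and without Pio, and Apob was lower with Pio in KO mice on control diet. None of these 3 was called when low counts were not filtered or when the KO mice were fitted alone, and limma and DESeq2 called all 3. Without mouse 13 the spread estimated over all genes was smaller (common dispersion 0.0506 against 0.085), and other members were called, among them Apoa1 and Mttp in WT mice. Mouse 13 is a KO mouse, so these WT calls came with the spread shared between genotypes. When the WT mice were fitted alone, 0 of 50 values of members were called. The other 137 values were not called with all 40 mice, which does not show that those levels were equal.

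**Figure D3:**
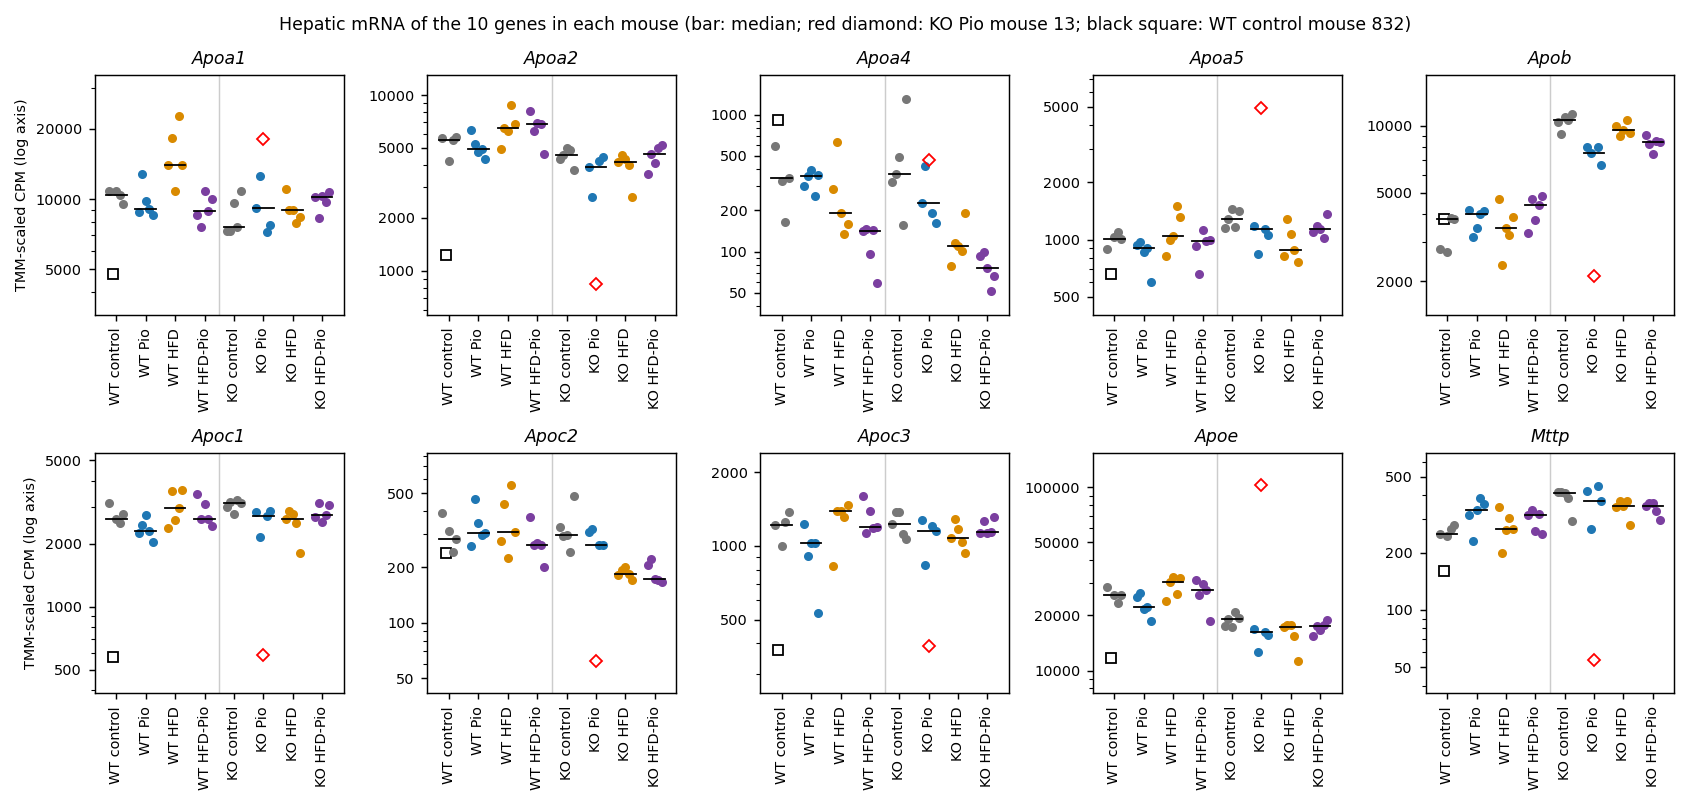
TMM-scaled CPM of each member in every mouse, on log axes, by group (5 mice per group). Bars are group medians, the red diamond is KO Pio mouse 13 and the black square is WT control mouse 832. Apoa4 is lower in KO HFD than in most KO control mice, and mouse 13 is far from its group for Apoe, Apoa5, Apob, Apoc2 and Mttp.

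Apob encodes the structural protein of VLDL. In KO control mice it was at 10407, 9208, 10997, 10573 and 11335 CPM in mice 1 to 5. In KO Pio mice it was at 8057, 7524, 2108, 7999 and 6631 CPM in mice 11 to 15. All KO Pio mice were below all KO control mice, with mouse 13 lowest. Pio was followed by a fall of Apob on control diet, with a log2 fold change of -0.70 ± 0.21 (edgeR quasi-likelihood, Benjamini-Hochberg adjusted p = 0.0386, exact permutation p = 0.00794, two-sided, the smallest that 5 against 5 mice allow), where 9.01% of tested genes were called. Groups lay apart, the Pio group lower, for 2.09% of tested genes. Without mouse 13 the groups still did not overlap, but the value shrank to -0.46 ± 0.15 and was not called (adjusted p = 0.182, exact permutation p = 0.00794), and 0.512% of genes were called. The call was also lost without any of mice 1 to 5, at values from -0.74 to -0.67.

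On HFD Apob was at 9002, 9598, 10628, 9265 and 9969.6 CPM in KO HFD mice and at 9103, 8275, 7498, 8495 and 8477 in KO HFD-Pio mice. These groups overlapped by 1 pair of values, and the difference was -0.21 ± 0.21 (adjusted p = 1). In WT mice Apob ran from 2356 to 4836 CPM over the 4 groups, which all overlapped, with Pio differences of 0.16 ± 0.21 on control diet and 0.25 ± 0.21 on HFD. The WT range lay below the 6631 to 11335 CPM of the KO mice other than mouse 13, a difference in which genotype and table cannot be told apart. The Pio effect on control diet differed between KO and WT mice by an amount that did not pass (difference -0.86 ± 0.30, adjusted p = 0.0659). It passed without mouse 11, 12 or 14, at -0.95 to -0.92, and not without mouse 13, at -0.63 ± 0.21 (adjusted p = 0.0661).

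Mttp encodes the lipid-transferring subunit of microsomal triglyceride transfer protein. In WT control mice it was at 251, 159.6, 245, 266 and 279 CPM in mice 831 to 835, and in WT Pio mice at 314, 231, 334, 387 and 361 CPM in mice 841 to 845. Mouse 832 was lowest and the groups overlapped through Pio mouse 842. The difference was 0.44 ± 0.27 with all 40 mice (adjusted p = 0.41, exact permutation p = 0.0476) and 0.45 ± 0.15 without mouse 13 (adjusted p = 0.0381), where it was called beside 15.6% of tested genes. Without mice 13 and 832 it was 0.32 ± 0.15 and not called (adjusted p = 0.139). The summed adipocyte markers given above, carried mostly by Car3 and Cfd, were higher in all 5 WT Pio than in all WT control mice. Adipoq stayed under 1 CPM in every mouse. The study reported that Pio induced Cfd in WT but not KO livers on control diet. The part of these markers in the Mttp result was not tested. Elsewhere Mttp ran from 199.97 to 349 CPM in the WT mice on HFD and from 267 to 446 in the KO mice other than mouse 13, with no call. P4hb, the protein disulfide isomerase that forms the other subunit of the transfer protein, was at 1062 ± 83.2 against 1471 ± 155 CPM in KO Pio and control mice (n = 5 each), a fall of 0.47 on the log2 scale that was called (adjusted p = 0.0224). That call was lost without mouse 3 or 4 and without mouse 13, where the value stayed at -0.46 (adjusted p = 0.0577).

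Apoa1 encodes the main protein of HDL. It was at 10819, 4782, 10806, 10397 and 9552 CPM in WT control and at 13972, 18226, 10809, 22794 and 13978 CPM in WT HFD mice (826 to 830). In WT HFD-Pio mice (836 to 840) it was at 8554, 7589.5, 10871, 8869 and 9978 CPM, and in WT Pio mice at 8781, 12859, 9818, 9041 and 8538. The WT HFD group was highest and held mouse 829, the highest of all 40, and it met the control group only between mouse 828 and mouse 831. The difference between HFD and control diet was 0.78 ± 0.23 with all 40 mice (adjusted p = 0.0714, exact permutation p = 0.0159) and 0.77 ± 0.19 without mouse 13 (adjusted p = 0.014), where it was called among 6.55% of tested genes. Without mice 13 and 832 it was 0.62 ± 0.18 and not called (adjusted p = 0.0576). The summed adipocyte markers, carried mostly by Car3 and Cfd, were higher in all 5 WT HFD than in all WT control mice. Adipoq stayed under 1 CPM in every mouse. The part of these markers in the Apoa1 result was not tested.

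Between WT HFD-Pio and HFD mice the log2 fold change of Apoa1 was -0.80 ± 0.23 with all 40 mice (adjusted p = 0.0677, exact permutation p = 0.0159). This was called without mouse 13, at -0.78 ± 0.19 (adjusted p = 0.00956, with 11.6% of tested genes called), and without mouse 832, at -0.79 (adjusted p = 0.0395). The 2 differences share the WT HFD mice. The Pio effects on the 2 diets in WT mice differed by -0.88 ± 0.32 (adjusted p = 0.228, and 0.0511 without mouse 13). In KO mice other than mouse 13 Apoa1 ran from 7263 to 12572 CPM, the 4 groups overlapped, and the difference between HFD and control diet was 0.09 ± 0.22. Lcat, the cholesterol-esterifying enzyme that ApoA1 activates, was at 1383 ± 452 against 759 ± 242 CPM in WT HFD and control mice and rose on HFD by 0.86 ± 0.22 (adjusted p = 0.0316), a call that was lost without mouse 828, 829, 832, 833, 834 or 835, at values from 0.70 to 0.89.

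Apoa2 encodes the second HDL protein. It ran from 4189 to 8725 CPM in WT mice other than mouse 832, and from 2619.9 to 5165 in KO mice other than mouse 13. No comparison called it in edgeR. The widest differences between 2 groups were -0.50 ± 0.30 between KO Pio and control mice, which shrank to -0.23 ± 0.25 without mouse 13, and 0.56 ± 0.30 between WT HFD and control mice, which shrank to 0.32 ± 0.18 without mice 13 and 832.

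Apoa4 encodes an apolipoprotein of chylomicrons and HDL that mouse liver makes as well as intestine. In KO control mice it was at 321, 366, 492, 156 and 1312 CPM, and in KO HFD mice (6 to 10) at 115, 109.7, 101, 191 and 78.1. Control mouse 5 was highest of all 40 mice, and the groups met where HFD mouse 9 lay above control mouse 4. Apoa4 was lower on HFD, at 119 ± 42.6 against 529.8 ± 454 CPM (SD, n = 5 each), a log2 fold change of -2.16 ± 0.45 (adjusted p = 0.0255, exact permutation p = 0.0159). This comparison called 0.185% of tested genes. Without mouse 13 it was -2.14 ± 0.46 (adjusted p = 0.0211, 0.388% called). The call was lost without mouse 5, at -1.49 (adjusted p = 0.224), and without mouse 3, 6, 7, 8 or 10, at -2.18 to -2.03 (adjusted p from 0.052 to 0.101).

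With Pio, Apoa4 was at 228, 421, 470.4, 192 and 163 CPM in KO Pio mice and at 92.7, 98.7, 75.3, 51.4 and 65.7 in KO HFD-Pio mice (16 to 20). All KO HFD-Pio mice were below all KO Pio mice, as holds in this direction for 1.2% of tested genes. The difference was -1.94 ± 0.45 (adjusted p = 0.0314, exact permutation p = 0.00794), where 4.96% of genes were called. Without mouse 13 the groups still did not overlap and the value was -1.72 ± 0.47, which was not called (adjusted p = 0.187, 0.0931% called). The call was also lost without any of mice 16 to 20, at -2.05 to -1.83.

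In WT mice Apoa4 was at 591, 908, 330.1, 163 and 343 CPM on control diet and 286, 627, 190.2, 135 and 159 on HFD. Mouse 832 was highest, and the groups overlapped, with 2 HFD mice below all control mice. It was at 299, 355, 394, 256 and 362 CPM in WT Pio and 140.1, 146, 96.5, 144 and 58.9 in WT HFD-Pio mice. All WT HFD-Pio mice were below all WT Pio mice, as holds in this direction for 3.59% of tested genes. The difference was -1.51 ± 0.45 (adjusted p = 0.0791, exact permutation p = 0.00794), and it was called without mouse 13 at -1.52 ± 0.45 (adjusted p = 0.0317, with 8.68% of genes called) and without mouse 5 or 841. The difference between WT HFD-Pio and HFD mice was -1.25 ± 0.44 (adjusted p = 0.149), a value that was called without mice 13 and 832 (adjusted p = 0.0467) and was -0.70 without HFD mouse 827 (adjusted p = 0.454). In all 4 comparisons of HFD with control diet the fitted value for Apoa4 was below 0, from -2.16 to -0.74, of which the last, in WT mice without Pio, was -0.35 ± 0.45 without mice 13 and 832 and ran from -1.30 to -0.35 with 1 mouse left out. The HFD effect without Pio did not pass as different between KO and WT mice (-1.41 ± 0.62, from -1.81 to -0.75 with 1 mouse left out, adjusted p = 0.444), nor did the effect with Pio (-0.43 ± 0.62, adjusted p = 0.736). The enterocyte markers that were expressed here, Cdhr5, Fabp2 and Lgals4, summed with the rest to 159 to 234 CPM in KO control and 130.1 to 160.0 in KO HFD mice, while Sis, Alpi, Lct and Vil1 stayed at or near 0. Creb3l3, a liver transcription factor that is released from the endoplasmic reticulum and acts on Apoa4, was higher in WT HFD-Pio than WT Pio mice by 0.66 ± 0.15 (adjusted p = 0.0186).

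Apoa5 encodes a scarce plasma protein that promotes lipolysis. It ran from 601 to 1507 CPM in WT and from 763 to 1444 in KO mice other than mouse 13. No comparison called it with all 40 mice. Between KO HFD-Pio and Pio mice it was -0.66 ± 0.29 (adjusted p = 0.158), with mouse 13 at 4917 CPM, and 0.13 ± 0.17 without mouse 13. Without mouse 12 the value was -0.86 and was called (adjusted p = 0.0407).

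Apoc1 encodes an exchangeable protein of VLDL and HDL. It ran from 2042 to 3624 CPM in WT mice other than mouse 832 and from 1814 to 3247 in KO mice other than mouse 13. It was called in none of the comparisons in edgeR. Apoc3, an inhibitor of lipolysis, ran from 529.7 to 1599.6 CPM in WT and from 838 to 1380.1 in KO mice with the same exceptions. Between WT HFD-Pio and Pio mice Apoc3 differed by 0.46 ± 0.25 (adjusted p = 0.423) and Apoa2 by 0.35 ± 0.30 (adjusted p = 0.649), which edgeR did not call and limma did.

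Apoc2 encodes the activator of lipoprotein lipase. It was at 329, 296, 299.6, 242 and 487 CPM in KO control and at 194, 199, 183, 169.7 and 182 in KO HFD mice. All KO HFD mice were below all KO control mice, as holds in this direction for 1.72% of tested genes. The difference was -0.84 ± 0.27 (adjusted p = 0.47, exact permutation p = 0.00794), and without mouse 13, with a smaller fitted spread, -0.82 ± 0.20 (adjusted p = 0.0473), which was called. limma called Apoc2 here with all 40 mice (542 of 12942 genes called) and without mouse 13 (547 of 12895). DESeq2 called it only without mouse 13 (84 of 12895). In KO Pio mice Apoc2 was at 308, 322, 62.2, 263 and 264 CPM and in KO HFD-Pio mice at 205, 222, 172, 169.5 and 166. Without mouse 13 these groups did not overlap, as holds in this direction for 2.1% of genes, and the difference was -0.64 ± 0.20 (adjusted p = 0.372), against -0.38 ± 0.27 with it. Between these groups limma called Apoc2 with all 40 mice (309 of 12942 genes called) and without mouse 13 (309 of 12895). In WT mice Apoc2 ran from 200.2 to 552 CPM, the groups overlapped, and the difference between HFD and control diet was 0.29 ± 0.27 (adjusted p = 0.705). The HFD effect without Pio was lower in KO than in WT mice without mouse 13, a difference of -1.10 ± 0.28 (adjusted p = 0.0432, with 1.05% of genes called), and did not pass with all 40 mice (-1.13 ± 0.38, adjusted p = 0.263) or without mice 13 and 832 (-1.06 ± 0.29, adjusted p = 0.0704).

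Apoe encodes the ligand by which remnants are taken up through the LDL receptor family. It was at 17492, 19012, 17306, 20817 and 19236 CPM in KO control and at 16955, 12589.9, 102575, 16224 and 15681 in KO Pio mice. Apart from mouse 13 all KO Pio mice were below all KO control mice. With mouse 13 the fitted difference was 0.81 ± 0.35 (adjusted p = 0.124) and without it -0.27 ± 0.18 (adjusted p = 0.667, exact permutation p = 0.00794), so its direction rested on that mouse. Groups lay apart in this direction for 3.99% of genes without mouse 13. Without mouse 12 and with mouse 13 it was called in the other direction, at 1.05 (adjusted p = 0.0313). Likewise the difference between KO HFD-Pio and Pio mice was -0.93 ± 0.35 with mouse 13 (adjusted p = 0.0923), was called at -1.16 to -1.10 without mouse 11, 12, 14 or 15, and was 0.16 ± 0.18 without mouse 13. In WT mice other than mouse 832 Apoe ran from 18552 to 32391 CPM, and the difference between HFD and control diet was 0.33 ± 0.35 (adjusted p = 0.753).

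**Figure D4:**
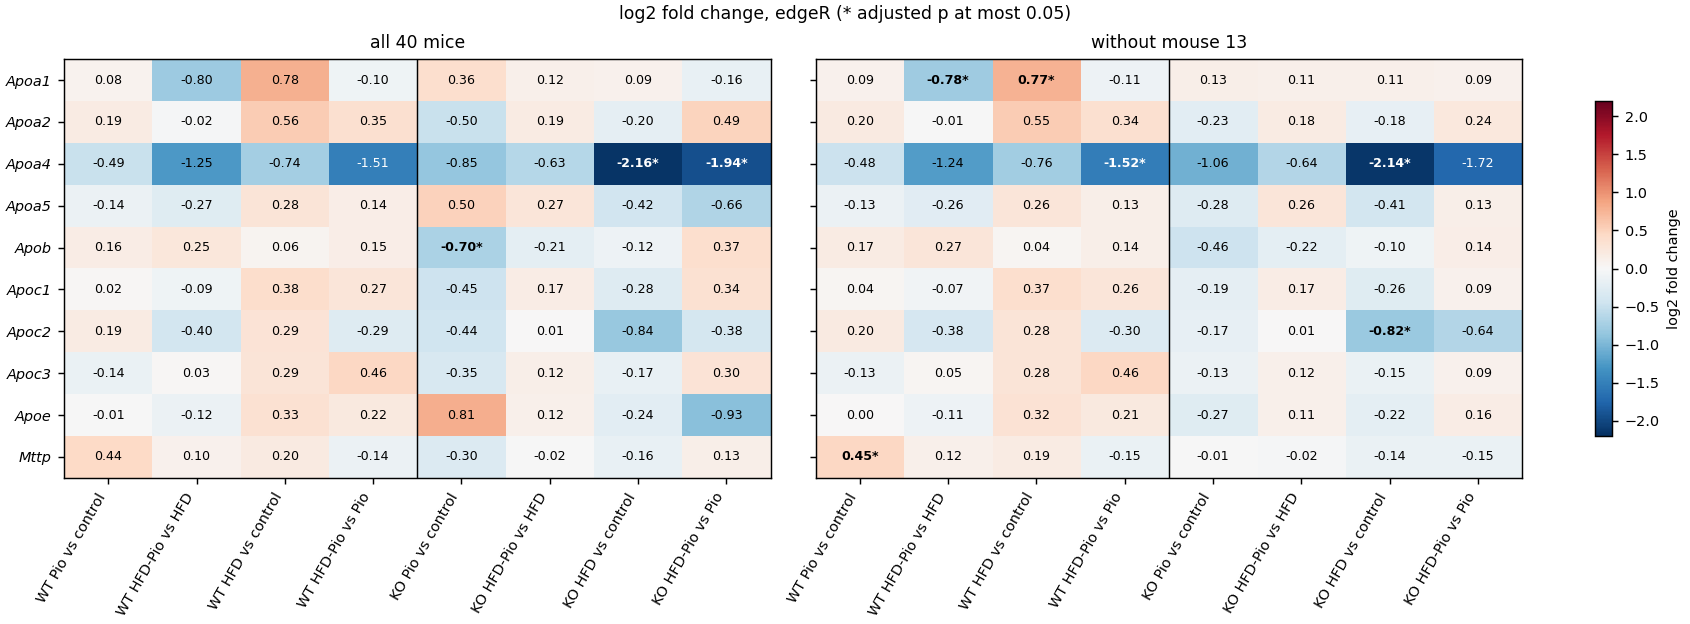
Log2 fold changes of the 10 members in the 8 two-group comparisons, fitted over all 40 mice and again without mouse 13, as colour and printed value, with an asterisk where edgeR's adjusted p was at most 0.05. Apoa4 is at -2.16 and -2.14 for KO HFD against control, and Apoe changes sign between the fits in the 2 comparisons that use the KO Pio group.

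Counted over the 10 members, edgeR's quasi-likelihood test called 0 in WT Pio against control (3.91% of tested genes were called), 0 in WT HFD-Pio against HFD (1.08%), 0 in WT HFD against control (1.31%) and 0 in WT HFD-Pio against Pio (1.22%). At an unadjusted p under 0.05 these held 0, 2, 1 and 1 members, beside 17.9%, 15.6%, 13.2% and 14.2% of all tested genes. DESeq2 called 0, 1 (Apoa1), 1 (Apoa1) and 1 (Apoa4), and limma 1 (Mttp), 1 (Apoa1), 0 and 3 (Apoa2, Apoa4 and Apoc3). Without mouse 13 edgeR called 1 in each. The median member changed by 0.05, -0.11, 0.29 and 0.14 on the log2 scale in this order, beside medians of all genes of -0.02, -0.02, 0.00 and -0.01.

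No member lay apart between groups in the first 3 of these, where 7.53%, 7.12% and 3.05% of tested genes did. In KO mice 1 of 10 was called in Pio against control (9.01% of tested genes), in HFD against control (0.185%) and in HFD-Pio against Pio (4.96%). In HFD-Pio against HFD 0 were called (0.0155% of tested genes, and 0% without mouse 13). There no member lay apart, against 0.61% of genes in either direction. The last had 0 members at an unadjusted p under 0.05, beside 1.04% of genes. DESeq2 and limma called 0 members there, beside 8 and 0 of 12942 genes. The median member changed by -0.39, -0.22, -0.01 and 0.12, beside 0.03, -0.01, -0.02 and 0.00 for all genes. Without mouse 13 the medians were -0.21, -0.20, 0.09 and 0.11.

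For the differences between effects edgeR called 0 of 10 members in each of 6. Pio effects on the 2 diets were compared in WT mice (0.0773% of genes called, and 1 member at an unadjusted p under 0.05 beside 12.1% of genes) and in KO mice (0% called, 0 members beside 12.1%). Pio effects in KO and WT mice were compared on control diet (7.87% called, 1 member beside 27.2%) and on HFD (0.0927% called, 1 member beside 5.93%). HFD effects in KO and WT mice were compared without Pio (0.0618% called, 3 members beside 9.43%) and with it (0.0155% called, 1 member beside 19.3%). DESeq2 called Apob in the first comparison of KO with WT mice, beside 1392 of 12942 genes. limma called Apob there, Apoa1 for Pio on HFD and Apoc2 for HFD without Pio, beside 1998, 354 and 185 of 12942 genes. Neither called a member in the other 3. Without mouse 13 edgeR called 5.25% and 0% of genes for the differences between diets, 5.78% and 0.163% for the Pio effects and 0.00775% for HFD with Pio, with no member among them. For HFD without Pio all 10 members had a lower value in KO than in WT mice, with a median difference of -0.68 beside -0.01 for all genes. Without mouse 13 the median was -0.65 and 7 members had an unadjusted p under 0.05, beside 17.4% of genes, with 1.05% of genes called. Without mice 13 and 832 it was -0.47, again with 7, beside 13.5%. These members share the same 20 mice, and mouse 832 is among the WT controls, so they are not 10 separate observations.

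Other genes of lipoprotein metabolism were followed in 5 lists of 83 genes, of which 82 were tested. The lists were chosen with earlier results of these data known. Their shares called are therefore a description and not a test against all genes. In WT mice Pio was followed by higher Cd36, a fatty acid and lipoprotein receptor, at 141 ± 31.9 against 40.9 ± 20 CPM on control diet (n = 5 each), a log2 fold change of 1.78 ± 0.38 (adjusted p = 0.00528), and by 1.98 ± 0.39 (adjusted p = 0.00509) on HFD. Both calls held in all 40 fits that left out 1 mouse. On control diet Vldlr, the VLDL receptor, rose by 1.75 ± 0.43 (adjusted p = 0.0153) and Lpl, lipoprotein lipase, by 1.72 ± 0.50 (adjusted p = 0.0422), calls that were lost without mouse 845 for Vldlr (1.63, adjusted p = 0.0534) and without any of 13 mice for Lpl, at 1.46 to 1.82. On HFD Pltp, which transfers phospholipids between particles, rose by 1.12 ± 0.29 (adjusted p = 0.0434), which was lost in 16 of 40 fits, at 1.01 to 1.16, while Apol9b fell with -1.10 ± 0.22 (adjusted p = 0.00741) and Apol9a with -1.09 ± 0.25 (adjusted p = 0.0189). The Apol9a call was lost without mouse 827, 828, 836, 837 or 839, at -1.09 to -0.95. Apol9b was higher on HFD than on control diet by 0.86 ± 0.22 (adjusted p = 0.0394), lost in 13 of 40 fits, at 0.70 to 0.90. Apol9a and Apol9b are near-identical copies, so reads may be split between them.

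With Pio in both groups, WT HFD mice had higher Angptl4, an inhibitor of lipoprotein lipase, by 0.94 ± 0.21 (adjusted p = 0.0179), lower Pltp at -1.29 ± 0.29 (adjusted p = 0.0179) and lower Lrpap1, the chaperone of LDL receptor family proteins, at -0.45 ± 0.11 (adjusted p = 0.0306). Each of these calls, and that of Creb3l3, was lost without some of mice 837, 838, 840, 842, 843 and 845, at 0.85 to 0.92 for Angptl4, -1.20 to -1.12 for Pltp, -0.47 to -0.39 for Lrpap1 and 0.57 to 0.64 for Creb3l3. By list, WT Pio against control called 0 of 14 other apolipoproteins, 1 of 21 assembly and secretion partners (Sec24a), 2 of 12 receptors, 2 of 14 lipases and remodelling genes and 0 of 21 regulators of transcription. In all, 5 of 82 (6.10%) were called there, beside 3.91% of all tested genes, and 4 (4.88%), 2 (2.44%) and 4 (4.88%), beside 1.08%, 1.31% and 1.22%, in WT HFD-Pio against HFD, HFD against control and HFD-Pio against Pio (2 higher and 2 lower, 2 higher, and 2 higher and 2 lower). Without mouse 13 these were 18 (22.0%), 16 (19.5%), 12 (14.6%) and 8 (9.76%), beside 15.6%, 11.6%, 6.55% and 8.68% of all genes.

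In KO Pio against control 14 of 82 (17.1%) were called, 11 higher and 3 lower, beside 9.01% of all tested genes called, 86.0% of them higher. Without mouse 13 edgeR called only Pdia4, beside 0.512% of all genes. DESeq2 without mouse 13 called 6 of 82 and limma 13, beside 181 and 1186 of 12895 genes. By list the 14 were 0 of 14 other apolipoproteins, 4 of 21 assembly and secretion partners (1 higher, 3 lower), 3 of 12 receptors, 2 of 14 lipases and remodelling genes and 5 of 21 regulators, the last 3 lists all higher. Pdia4, a protein disulfide isomerase of the endoplasmic reticulum, was at 171 ± 51.5 against 325 ± 82.2 CPM (n = 5 each), a log2 fold change of -0.93 ± 0.19 (adjusted p = 0.00848) and of -0.75 ± 0.17 without mouse 13 (adjusted p = 0.0391), called in all 40 fits that left out 1 mouse. Ces3a, a carboxylesterase, fell with -0.98 ± 0.26 (adjusted p = 0.0243) and was lost without mouse 1, 4 or 13 (-0.95 to -0.71). The transcription factors Foxa2, at 2.00 ± 0.53 (adjusted p = 0.0232), and Cebpa, at 1.62 ± 0.45 (adjusted p = 0.0274), were higher with mouse 13, and at 0.36 and -0.05 without it. Angptl8, a secreted regulator of plasma triglyceride, was higher by 2.55 ± 0.55 (adjusted p = 0.00986), and by 2.00 without mouse 13 (adjusted p = 0.0782). Foxa2 was also lost without mouse 1, 3 or 4 and Cebpa without mouse 1, 2, 3 or 4, at 1.97 to 2.06 for Foxa2 and 1.60 to 1.65 for Cebpa. KO HFD-Pio against HFD called 0 of 82.

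In KO HFD-Pio against Pio 8 of 82 (9.76%) were called, 1 higher and 7 lower, beside 4.96% of all tested genes called, 91.4% of them lower. Without mouse 13 edgeR called 0, beside 0.0931% of all genes. At an unadjusted p under 0.05 there were 11 of the 82, beside 5.26% of all genes. DESeq2 without mouse 13 called 1 and limma 7, beside 53 and 309 of 12895 genes. Ces3a was higher by 1.00 ± 0.26 (adjusted p = 0.0399), while 3 of the lower genes were Angptl8, at -1.92 ± 0.53 (adjusted p = 0.0409), Srebf1, a regulator of lipid synthesis, at -1.54 ± 0.41 (adjusted p = 0.0399), and the nuclear receptor gene Esrra, at -1.38 ± 0.37 (adjusted p = 0.0399). Without mouse 13 these stood at 0.75, -1.36, -0.36 and -0.15, and each was also lost without any of mice 16 to 20, at 0.93 to 1.04, -2.18 to -1.74, -1.64 to -1.46 and -1.46 to -1.32. KO HFD against control called 1 of 82, Saa2, an acute-phase apolipoprotein of HDL, at 6.93 ± 1.51 (adjusted p = 0.0308), which rested on mouse 9 with 13992 CPM: without it the value was 2.53 (adjusted p = 1.00), and it was also lost without any of mice 1 to 5, at 6.73 to 7.68. Mouse 9 also had the lowest Mttp, Apoa2, Apoa5, Apoc1, Apoc2, Apoc3 and Apoe and the highest Apoa4 of the KO HFD group, and its macrophage markers summed to 859 CPM, the highest of all 40 mice. The part of these values in its apolipoproteins was not tested.

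Some pairs of members also varied together between mice of the same group. Deviations of log2 CPM from the group means were correlated for 45 pairs in each genotype, by permutation within groups with 100000 resamples. All members of a mouse share its library and scaling factor, and the part of the library in this covariation was not tested. How often pairs of other genes pass was not tested either, so the counts of pairs have no share over all genes beside them. Over the 20 WT mice 12 of 45 pairs passed at an adjusted p of at most 0.05, 10 positive and 2 negative. Over the 19 KO mice without mouse 13 it was 9 pairs, 8 positive and 1 negative, and with mouse 13 it was 11, 7 positive and 4 negative. Apoc1 and Apoe, neighbours on chromosome 7, had in KO mice without mouse 13 a Pearson's r of 0.94 (permutation p = 9e-05, adjusted p = 0.00405) and Spearman's rho of 0.86 (permutation p = 9e-05, adjusted p = 0.00405), with r at 0.81 after the 2 mice farthest from the median of Apoc1 were left out. In WT mice they had a Pearson's r of 0.87 (permutation p = 0.00069, adjusted p = 0.00934) and Spearman's rho of 0.74 (permutation p = 0.00229, adjusted p = 0.0147), with r at 0.65 after the 2 mice farthest from the median of Apoc1 were left out.

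Pairs from different chromosomes were among them. Apoa2 and Apoc1 in WT mice had a Pearson's r of 0.91 (permutation p = 0.00441, adjusted p = 0.0248) and Spearman's rho of 0.78 (permutation p = 0.00293, adjusted p = 0.0147), with r at 0.69 after the 2 mice farthest from the median of Apoa2 were left out. The opposite sign was seen for Apob and Apoc2 in WT mice, with a Pearson's r of -0.72 (permutation p = 0.00232, adjusted p = 0.0174) and Spearman's rho of -0.77 (permutation p = 0.0003, adjusted p = 0.0135), with r at -0.67 after the 2 mice farthest from the median of Apob were left out. In KO mice without mouse 13 this pair had a Pearson's r of 0.31 (permutation p = 0.261, adjusted p = 0.405). For Apoa4 and Apoa5, neighbours on chromosome 9, WT mice gave a Pearson's r of -0.64 (permutation p = 0.00657, adjusted p = 0.0269) and Spearman's rho of -0.72 (permutation p = 0.00249, adjusted p = 0.0147), with r at -0.67 after the 2 mice farthest from the median of Apoa4 were left out, and KO mice without mouse 13 a Pearson's r of 0.07 (permutation p = 0.759, adjusted p = 0.876) and Spearman's rho of 0.14 (permutation p = 0.584, adjusted p = 0.796), with r at -0.20 after the 2 mice farthest from the median of Apoa4 were left out. Apoa4 and Apoc2 in KO mice without mouse 13 had a Pearson's r of 0.80 (permutation p = 0.00376, adjusted p = 0.0282) and Spearman's rho of 0.69 (permutation p = 0.00386, adjusted p = 0.0347), with r at 0.45 after the 2 mice farthest from the median of Apoa4 were left out. In WT mice this pair had a Pearson's r of 0.25 (permutation p = 0.387, adjusted p = 0.435). Apob and Mttp, which act in the same step, gave a Pearson's r of 0.38 (permutation p = 0.146, adjusted p = 0.244) and Spearman's rho of 0.32 (permutation p = 0.203, adjusted p = 0.366), with r at 0.27 after the 2 mice farthest from the median of Apob were left out in WT mice. In KO mice without mouse 13 this pair had a Pearson's r of -0.035 (permutation p = 0.913, adjusted p = 0.956). With mouse 13 it had a Pearson's r of 0.91 (permutation p = 0.102, adjusted p = 0.209).

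**Figure D5:**
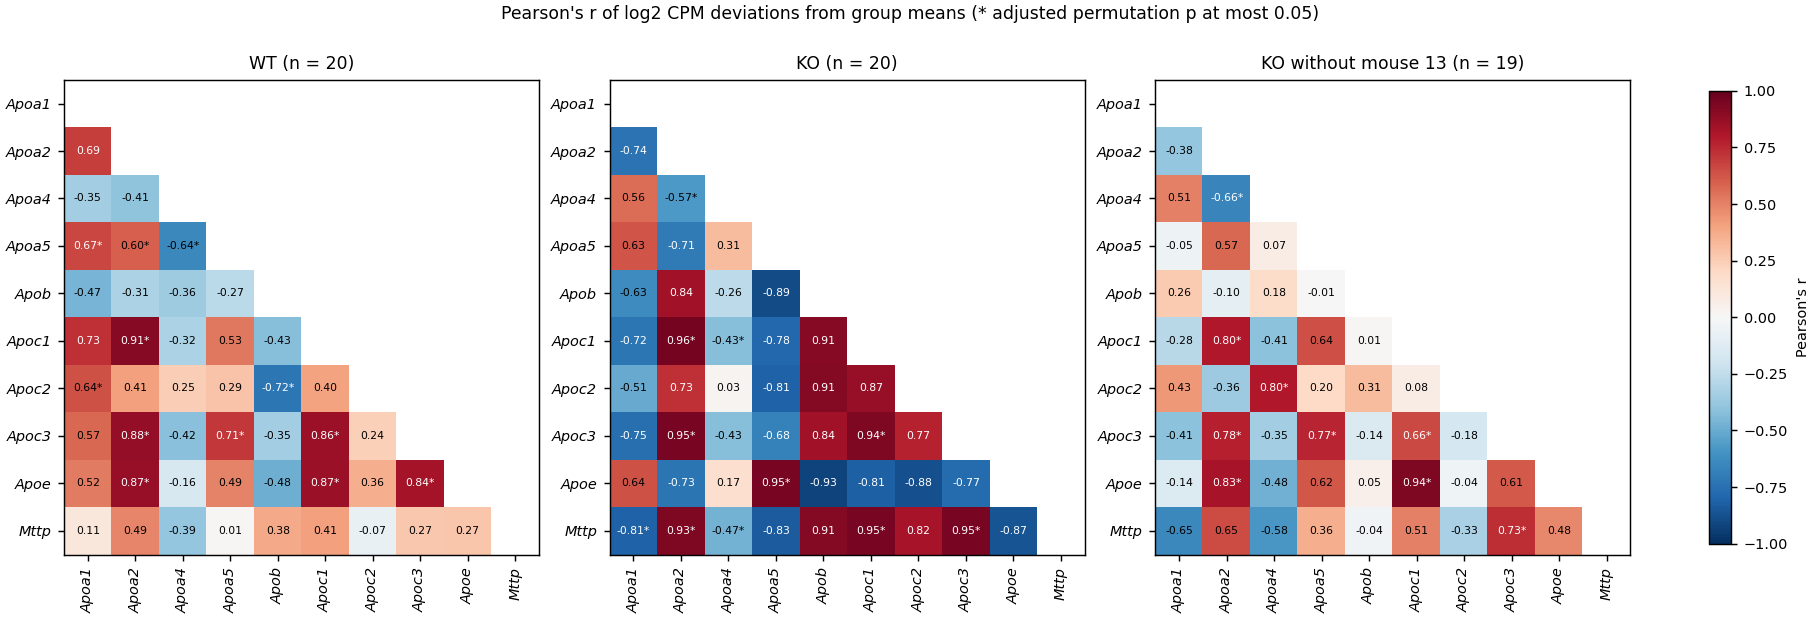
Pearson's r of the deviations of log2 CPM from group means for each pair of members, over 20 WT mice, 20 KO mice and 19 KO mice without mouse 13. Apoa2, Apoc1, Apoc3 and Apoe form a positive block in WT mice, and mouse 13 adds negative pairs in the KO mice.

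Outside the members, the tested gene with the highest Pearson's r of log2 CPM over the 20 WT mice was named for each, with r over the 19 KO mice without mouse 13 in parentheses, as a description without a test. These r include the group differences and the shared library. The most alike gene for Apob, Mttp, Apoa1 and Apoa2 was Lmbrd2 at 0.92 (0.51), Nxpe2 at 0.91 (0.71), Ecsit at 0.90 (-0.47) and Surf1 at 0.94 (0.87). For Apoa4 it was Grap2 at 0.86 (0.52), and for Apoa5 Zfp444 at 0.87 (0.38). For Apoc1 it was Ndufv3 at 0.94 (0.73), for Apoc2 Surf2 at 0.84 (-0.13), for Apoc3 Atp5o at 0.95 (0.69) and for Apoe Ttc36 at 0.96 (0.70). The next was Atp13a3 at 0.90 (0.17) for Apob, Slc15a5 at 0.90 (0.78) for Mttp, Ift27 at 0.89 (0.38) for Apoa1, D130020L05Rik at 0.94 (0.89) for Apoa2 and Bco1 at 0.82 (0.43) for Apoa4. For Apoa5 the next was Cdip1 at 0.86 (0.16), for Apoc1 Ndufa3 at 0.94 (0.76), for Apoc2 Snrpc at 0.83 (0.05), for Apoc3 C8g at 0.95 (0.79) and for Apoe Cst3 at 0.94 (0.40). For Apoa1 and Apoc2 the closest WT gene had a negative r in the KO mice.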

How the data were processed

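Total liver RNA was purified with Trizol, selected for poly-A RNA and copied with random hexamers. Per the study's methods and the submitters' processing notes, the authors aligned reads to Ensembl release 76 of GRCm38 with STAR 2.0.4b and deposited raw counts of uniquely aligned, unambiguous reads per gene from featureCounts 1.4.5 of the Subread package, in 1 table per genotype. The deposited WT table also lists GC content in percent per gene, which entered no test. Repeated lines (598 in the KO and 574 in the WT table) were identical and kept once, the tables were joined on 40594 gene identifiers, with 96 genes found only in the WT table left out, and 355 rRNA genes were removed.

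Genes at 1 CPM or more in at least 5 mice were kept (12942, or 12895 without mouse 13). Counts were scaled by TMM and fitted for 8 groups with edgeR 4.0.16 (glmQLFit and glmQLFTest, R 4.3.3), with Benjamini-Hochberg adjustment over all tested genes at 0.05. Log2 CPM values used a prior count of 2. The 8 comparisons of 2 groups were HFD against control diet and Pio against none, each within a genotype, and 6 more tested differences between such effects. Exact permutation tests of the difference in mean log2 CPM, two-sided, cannot go below 0.00794 with 5 against 5 or 4 against 5 mice. Python 3.11.15, numpy 2.4.6, pandas 2.3.3 and scipy 1.17.1 were used for the rest. The fit was tested on simulated data. The alternatives were RLE and library-total scaling, DESeq2 1.42.0, limma 3.58.1 (voomWithQualityWeights, the study's choice), no filter, 1 genotype alone and each mouse left out in turn. Fits with limma or DESeq2 without mouse 13, and without mice 13 and 832, were added after the data were seen. Members, pathway lists and marker lists were chosen with earlier results of these data known. All 10 members are named, and among called pathway genes the 3 largest rises and 3 largest falls of each comparison are named. Exon lengths came from GENCODE M21 and promoter windows from RefSeq. Each sample is a separate mouse per the labels' numbers.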

Additional observations from a re-analysis of the deposited data

Results flagged for a closer look

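In groups of 5 mice, the highest or lowest value of a member was marked when its gap to the next mouse exceeded 0.71 of the group's range (Dixon's 95% limit). This marked 10 of 80 groups, where chance gives about 4. Mouse 13 was marked in the KO Pio group for Apoa5 at 4917 CPM, Apob at 2108, Apoc2 at 62.2 and Apoe at 102575. Mouse 832 was marked in the WT control group for Apoa1 at 4782 CPM, Apoc1 at 579 and Mttp at 159.6. The others were WT HFD mouse 826 for Apoc3 at 826 CPM, KO control mouse 5 for Mttp at 295 and KO HFD mouse 9 for Mttp at 279. The effect of HFD without Pio on Apoc2 differed between genotypes without mouse 13, by -1.10 on the log2 scale (KO minus WT, edgeR adjusted p = 0.0432), and did not pass with all 40 mice.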

How the results depend on the processing

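No call of a member changed sign in any alternative. RLE scaling left the counts of members called as reported. Library totals called 0 in KO Pio against control (1 as reported). They also moved the median of all genes by over 0.1, to -0.19 in WT Pio against control, -0.16 in WT HFD against control, 0.097 in WT HFD-Pio against Pio, 0.27 in the WT difference of Pio effects between diets, 0.23 in the KO minus WT Pio effect on control diet and 0.14 in the KO minus WT HFD effect without Pio. Without the filter on low counts, and with the KO mice alone, 0 members were called in KO Pio against control, KO HFD against control and KO HFD-Pio against Pio. With the WT mice alone 0 of 50 values of members were called. DESeq2 called 1 in WT HFD-Pio against HFD, WT HFD against control, WT HFD-Pio against Pio and the KO minus WT Pio effect on control diet, where edgeR called 0. It called 360, 376, 380 and 1392 of all 12942 genes there, in this order. limma called 1 in WT Pio against control, WT HFD-Pio against HFD, the KO minus WT Pio effects on both diets and the KO minus WT HFD effect without Pio, 3 in WT HFD-Pio against Pio, and 2 in KO HFD against control and KO HFD-Pio against Pio. It called 3095, 1087, 1998, 354, 185, 2937, 542 and 309 of all 12942 genes there, in this order. limma without mouse 13 gave the same counts of members, except 2 in WT HFD-Pio against Pio. DESeq2 without mouse 13 called 1 in the 4 WT comparisons, the WT difference of Pio effects between diets, the KO minus WT Pio effect on control diet and the KO minus WT HFD effect without Pio, 2 in KO HFD against control, and 0 in KO Pio against control and KO HFD-Pio against Pio. Without mice 13 and 832 edgeR called 2 in WT HFD-Pio against HFD and in KO HFD against control, 1 in WT HFD-Pio against Pio and in the KO minus WT Pio effect on control diet, and 0 in KO Pio against control and KO HFD-Pio against Pio.

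With each mouse left out in turn the members called ran from 0 to 3 in KO HFD-Pio against Pio, 0 to 2 in KO Pio against control and KO HFD against control, and 0 to 1 in the 4 WT comparisons and in the KO minus WT Pio effect on control diet and HFD effect without Pio. They stayed at 0 in the other comparisons. Of 140 values of members, 11 changed sign under library totals (up to 0.16 in size as reported), 7 without mouse 832 (up to 0.21), 2 without mouse 5 (up to 0.36), 1 under RLE scaling, 1 by DESeq2, 2 without the filter, 26 by limma and 18 without mouse 13 (both up to 0.93). Each other single mouse left out turned 0 to 3. Apoe in KO Pio against control (0.81 as reported) ran from -0.27 to 1.05 with 1 mouse left out, and was -0.23 by limma, -0.21 and -0.29 by limma and DESeq2 without mouse 13, and -0.29 without mice 13 and 832. Apoe in KO HFD-Pio against Pio (-0.93) ran from -1.16 to 0.16, and was 0.11, 0.11, 0.16 and 0.17 in the same order. Apoa5 in KO HFD-Pio against Pio (-0.66) ran from -0.86 to 0.13, and was 0.065, 0.064, 0.13 and 0.14. Cebpa in KO Pio against control (1.62) ran from -0.048 to 1.932 with 1 mouse left out, with -0.067 by DESeq2 without mouse 13 and -0.072 without mice 13 and 832. Pairs of members that covaried in KO mice numbered 11, and 9 without mouse 13. The cause of these changes was not tested, beyond the mice left out. No paired analysis was possible because the groups share no replicate numbers. Gene-level counts limit what can be said of isoforms, and 5 mice per group leave smaller changes uncalled.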
